A study of Mus musculus with 13 samples.

Results

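The genes described here are 37 identity genes of T cells, B cells and natural killer (NK) cells, the 3 main kinds of lymphocytes, chosen by symbol. The deposited table of 15213 genes listed 36 of them. Cd8b1 was not among the rows. They comprise 20 T cell genes, 8 B cell genes, 5 cytotoxic and NK cell genes, 2 antibody chain genes and Ltb, which encodes lymphotoxin beta. RNA-seq was performed on 10 mammary tumors from 6 mice with the MtTA Teto-TSG101wt genotype (MMTV-tTA TetO-Tsg101 double transgenic) and on mammary gland tissue from 3 WT FVB mice. In this model the MMTV promoter expresses the tetracycline-controlled transactivator, mainly in mammary epithelium, and the transactivator turns on mouse Tsg101 in the absence of doxycycline. The strain was FVB/N throughout, and the study worked mainly with a single line of the TetO-Tsg101 transgene. Tumors 2 and 3 shared a mouse, as did tumors 5 and 6 and tumors 8, 9 and 10, whereas tumors 1, 4 and 7 came from 1 mouse each. The labels give neither the ages, the parity and the gland position of the WT mice nor which libraries were sequenced at which of the named facilities. Whether the lymph node that lies in the mammary fat pad was removed is not given in the sources used here.

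T cells recognize antigen with a receptor whose variable chains sit in a complex with the CD3 chains, and the kinases Lck and Zap70 and the adaptor Lat pass the signal on. B cells carry an antibody as their receptor, coupled to CD79A and CD79B, and plasma cells that arise from them secrete it. NK cells and cytotoxic T cells kill by releasing perforin and granzymes. In a bulk tissue sample, fewer cells of a type and less RNA of each such cell cannot be told apart.

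The depth was 6176269 to 16835397 reads on listed genes in the tumors and 11672487 to 23889042 in the glands, and 3 reads, the limit that a count of 0 allows, correspond to between 0.128 and 0.683 normalized cpm. These limits cover counting error only. Normalized cpm are the deposited values, read counts scaled to the size of each library (cpm) and by a factor for each library. The ribosomal RNA gene Rn45s took up 0.456 to 27.4% of the tumor reads. Tsg101 transcripts were at 45.6, 53.0 and 61.0 normalized cpm in glands 1, 2 and 3, and the lowest, median and highest tumor values were 49.9, 63.4 and 101 (log2 fold change 0.30 ± 0.20, adjusted p = 0.279, limma). The Tsg101 difference was 0.62 with plain cpm (adjusted p = 0.0146) and -0.88 with scaling to epithelial genes (adjusted p = 0.0554, limma). Transgene and endogenous reads cannot be separated in this table. The epithelial keratin Krt8 was between 119 and 446 normalized cpm in all 13 libraries. Gland 2 and tumor 1 stood apart from the other libraries of their group in lymphocyte genes, and results are therefore given with and without them.

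The sequences of the members bear on how far their values can be separated. Trbc1 and Trbc2 are neighboring constant regions of the T cell receptor beta chain on chromosome 6 (chr6:41538219-41548181 for both, GRCm38). Their first coding exons of 375 bases differ in 1 base, and of the 426 windows of 75 bases (the read length) in the coding part of exons 1 to 3 of Trbc1, 233 (54.7%) occur unchanged in Trbc2. A read from such a window does not by itself tell the genes apart, although its mate may, and the values of Trbc1 and Trbc2 are therefore uncertain individually. The third coding exon holds the most differing bases of the exons compared, 15 of 107, which stand in capitals below (GENCODE, GRCm38, plus strand).
Trbc1 exon 3 (chr6:41539229-41539335): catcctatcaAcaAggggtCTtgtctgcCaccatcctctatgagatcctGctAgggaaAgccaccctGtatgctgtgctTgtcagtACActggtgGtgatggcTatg
Trbc2 exon 3 (chr6:41547772-41547878): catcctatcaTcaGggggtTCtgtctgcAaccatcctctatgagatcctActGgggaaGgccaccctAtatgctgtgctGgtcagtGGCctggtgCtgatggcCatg

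The 250 bases before a RefSeq transcript start (GRCm38.p6) were available for 24 members, as 30 windows. Of these windows, 16 reach into or lie within the annotated span of their gene. The windows were searched on both strands for 4 sequence motifs of lymphocyte transcription factors: an ETS motif (CAGGAAG), a RUNX motif (TGTGGT), an EBF motif (TCCC and GGGA with any 2 bases between them) and the octamer (ATGCAAAT), none of which contains another. The RUNX letters were found for 4 of the 4 cytotoxic and NK genes with a promoter entry (Gzma, Gzmb, Nkg7 and Prf1) for 2 of 13 T cell genes (Lck and Zap70) and for 1 of 5 B cell genes (Fcer2a), where 14.0% of all 32851 promoters hold them. A gene was counted when any of its promoters held the letters, and Fcer2a and Zap70 have 3 promoters each and Foxp3 and Lck 2 each, so that shares of genes and of promoters are not on the same footing. The ETS letters were found for 5 of 13 T cell genes (Cd247, Cd3e, Cd5, Lck and Zap70), 2 of 4 cytotoxic genes and 1 of 5 B cell genes, against 10.8% of all promoters. Of the 5 B cell genes, 1 held the EBF letters and 0 the octamer, which occur in 0.779% and 1.60% of all promoters. A match is a description of these windows and shows no binding. The promoters of a T cell, a B cell and a pair of cytotoxic genes whose levels are described below are shown from 5′ to 3′ on the gene's strand, with the motif matches in capitals. All 4 windows lie outside the annotated span of their gene.
Lck (chr4:129573642-129573891, minus strand): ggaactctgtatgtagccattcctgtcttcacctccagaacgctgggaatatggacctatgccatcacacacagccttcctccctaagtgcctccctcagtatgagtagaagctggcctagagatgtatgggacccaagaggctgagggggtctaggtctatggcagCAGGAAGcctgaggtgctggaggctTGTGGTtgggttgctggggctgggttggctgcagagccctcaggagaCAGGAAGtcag
Cd79a (chr7:24897247-24897496, plus strand): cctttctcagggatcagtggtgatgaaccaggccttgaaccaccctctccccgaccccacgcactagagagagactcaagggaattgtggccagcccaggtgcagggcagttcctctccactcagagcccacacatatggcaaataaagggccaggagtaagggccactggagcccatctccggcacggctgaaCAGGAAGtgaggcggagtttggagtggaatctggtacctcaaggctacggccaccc
Nkg7 (chr7:43436888-43437137, plus strand): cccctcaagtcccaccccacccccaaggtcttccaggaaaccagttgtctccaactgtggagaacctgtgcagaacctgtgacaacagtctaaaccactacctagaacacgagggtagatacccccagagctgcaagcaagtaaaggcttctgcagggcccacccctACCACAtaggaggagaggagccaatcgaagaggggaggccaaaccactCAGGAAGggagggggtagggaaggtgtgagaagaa
Gzmb (chr14:56262335-56262584, minus strand): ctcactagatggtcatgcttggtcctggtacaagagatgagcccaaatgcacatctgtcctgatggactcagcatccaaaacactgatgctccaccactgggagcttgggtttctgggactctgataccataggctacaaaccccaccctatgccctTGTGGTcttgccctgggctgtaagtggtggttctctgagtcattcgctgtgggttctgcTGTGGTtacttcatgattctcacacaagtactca

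The first comparison asked how the lymphocyte genes of tumors from MMTV-tTA TetO-Tsg101 mice compare with those of WT mammary glands. Of the 36 members, 27 were significantly lower in the tumors and 0 were significantly higher (limma, FDR below 0.05 and a change of more than 2-fold), beside 10.1% and 10.5% of all 15213 genes. At an unadjusted p under 0.05, 31 members differed, beside 41.5% of all genes. With edgeR and with DESeq2 on the recovered reads, 31 members were lower (beside 11.3% of all genes with either tool) and 0 were higher. Both tools added Cd3d, Icos, Cd22 and Blk to the 27. With scaling to epithelial genes 33 were lower (beside 54.6%), and of the 7 members that passed the low-abundance filter 5 were lower (beside 6.99%). The filter counts the glands as well, and Cd4, Lck and Ltb passed it only with their gland values. These calls are therefore no separate support. Because 10 tumors came from 6 mice, the mouse was also taken into account, which left 18 members lower with the mouse as a block (beside 11.0%) and 15 with the mean per mouse (beside 9.29%). Other cell types moved in the same contrast: of the adipocyte genes 8 of 8 were lower (median log2 fold change -6.27), of the endothelial genes 8 of 10 were lower (-1.74), and of the epithelial genes 4 of 8 were higher (1.17). Their part in the lymphocyte levels was not tested. The median log2 fold change of the members was -2.39, whereas that of all genes was 0.01. The T cell genes were lower in 15 of 20 cases, the B cell genes in 5 of 8, the cytotoxic and NK genes in 5 of 5, the antibody chains in 1 of 2, and Ltb was lower as well. With the mouse as a block, 11 of 20 T cell genes and 0 of 8 B cell genes were lower, and with the mean per mouse 9 of 20 and 0 of 8, while the cytotoxic and NK genes stayed at 5 of 5 in both. The 9 that did not pass the threshold were Cd3d, Ctla4, Icos, Foxp3, Bcl11b, Cd22, Ms4a1, Blk and Jchain. All 10 tumor values lay below those of all 3 glands for 6 members only (Cd3e, Cd4, Gzma, Gzmb, Nkg7 and Prf1), beside 10.3% of all genes. Against glands 1 and 3 alone, the same was true of 34 members, beside 13.5% of all genes, and Bcl11b and Jchain were the exceptions.

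**Figure D1:**
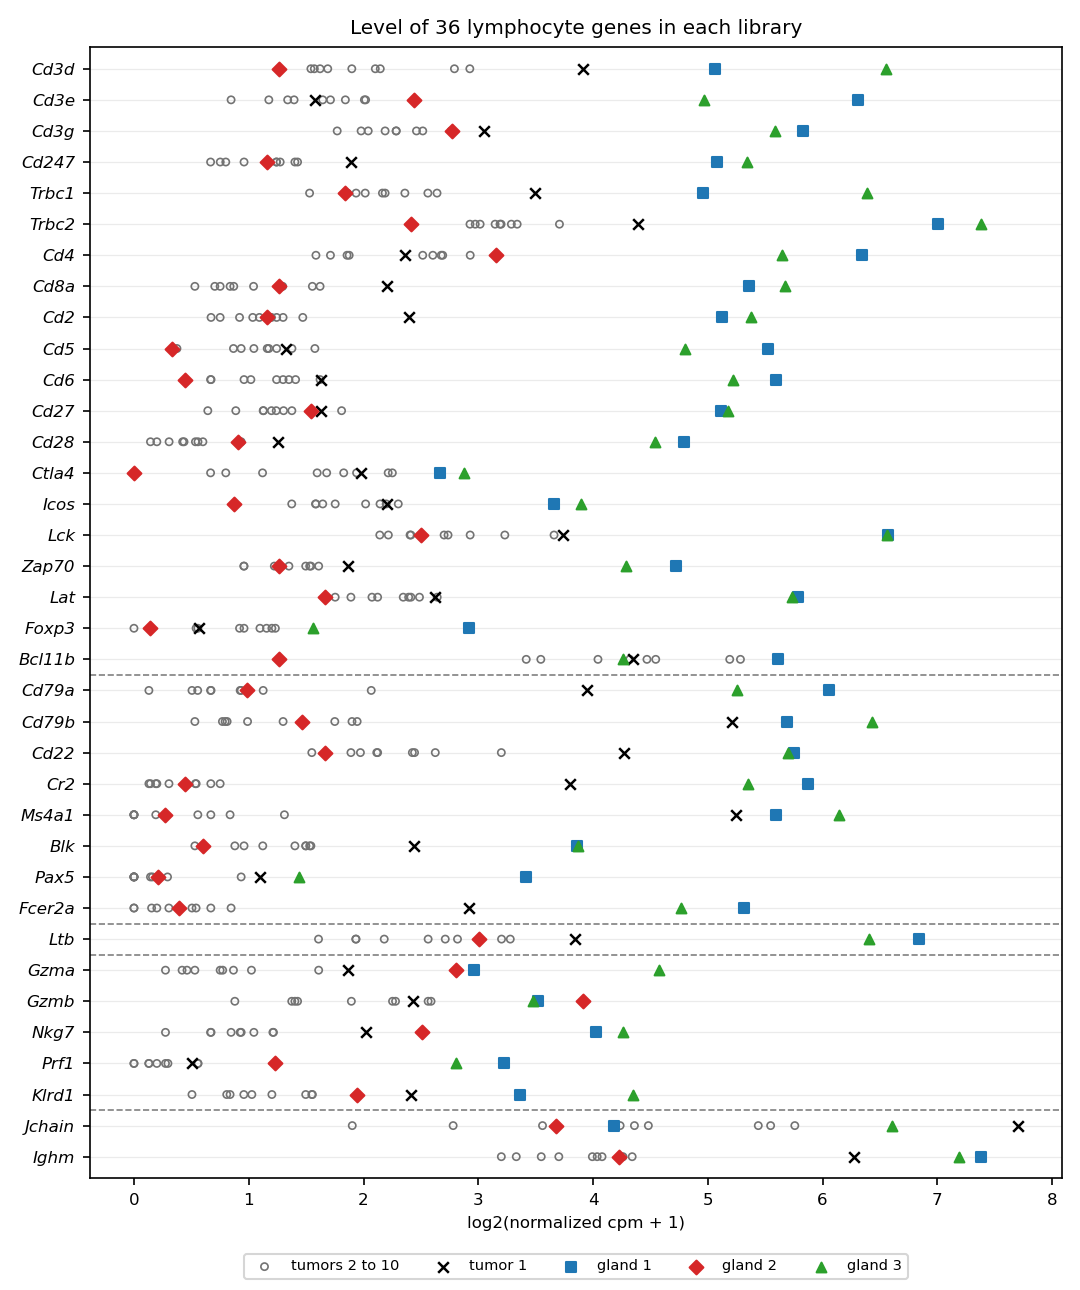
Level of the 36 listed members on the log2(normalized cpm + 1) scale (x axis) in each of the 13 libraries, with open circles for tumors 2 to 10, a cross for tumor 1 and filled symbols for the 3 glands. Dashed lines separate T cell, B cell, lymphotoxin, cytotoxic and antibody genes. Gland 2 lies among or below the tumors for most T and B cell genes, and tumor 1 is more than 2-fold above the next tumor for 7 of the 8 B cell genes.

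Among the T cell receptor complex, 5 of 6 members were lower in the tumors, 4 with the mouse as a block (without Trbc1) and 3 with the mean per mouse (without Trbc1 and Trbc2). Cd3e, a signaling chain of CD3, was at 78.2, 4.44 and 30.4 normalized cpm in glands 1, 2 and 3, and its lowest, median and highest tumor values were 0.798, 2.05 and 3.05 (log2 fold change -3.02 ± 0.53, adjusted p = 0.000554, n = 10 tumors and 3 glands, limma). The tumors did not overlap with the glands, although gland 2 was close to them. Cd3d, the member of the complex with the smallest fold change, was at 32.4, 1.39 and 93.0 in the glands and at 1.91, 3.01 and 14.1 in the tumors (log2 fold change -2.07 ± 0.79, adjusted p = 0.0586, limma), and gland 2 was below all 10 tumors. Cd3g, Cd3d and Cd3e lie side by side within 40092 bases (chr9:44969572-45009663, GRCm38.p6). Cd247, the zeta chain, Cd3g, Trbc1 and Trbc2 had log2 fold changes between -2.70 and -2.12.

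The coreceptors that bind MHC molecules beside the T cell receptor were both lower. Cd8a, carried by cytotoxic T cells, was at 40.1, 1.39 and 49.98 in the glands and at 0.445, 0.943 and 3.60 normalized cpm in the tumors (log2 fold change -2.96 ± 0.67, adjusted p = 0.00368, limma). Gland 2 lay within the tumor range. Cd4, the coreceptor of helper T cells, was at 80.3, 7.90 and 49.0 in the glands and 2.00, 4.43 and 6.62 in the tumors (log2 fold change -2.77 ± 0.50, adjusted p = 0.00062), and all tumors were below all glands.

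Adhesion and costimulatory receptors divided into members that were lower and members that did not pass the test. Cd2, Cd5, Cd6, Cd27 and Cd28 were significantly lower, with log2 fold changes between -2.88 and -2.44. Of these, Cd5 and Cd6 were not called with the mouse as a block (limma, adjusted p = 0.221 and 0.173) or with the mean per mouse (0.0785 and 0.07). Cd28, the costimulatory receptor for CD80 and CD86, was at 26.7, 0.878 and 22.3 in the glands and at 0.105, 0.401 and 1.38 normalized cpm in the tumors (log2 fold change -2.88 ± 0.57, adjusted p = 0.00145, limma), and gland 2 lay within the tumor range. Ctla4, the inhibitory receptor for the same ligands, was at 5.35, 0 and 6.34 in the glands and at 0.588, 2.38 and 3.76 in the tumors (log2 fold change -0.24 ± 0.51, adjusted p = 0.756). No read of Ctla4 was counted in gland 2, which allows a level of up to 0.155, and glands 1 and 3 were above all tumors. For Icos, a further receptor of the family, the log2 difference was -0.93 ± 0.46, which limma did not call (adjusted p = 0.146). Cd28, Ctla4 and Icos are neighbors on chromosome 1 (chr1:60746388-61000322). The ratio of Ctla4 to Cd28 reads was 0.201 and 0.284 in glands 1 and 3 and 0 in gland 2, where Cd28 had 17 reads. In the 10 tumors this ratio was between 1.67 and 21.0, with 5 to 49 reads of Ctla4 and 1 to 23 reads of Cd28. The pair was chosen after its values were seen, and its difference was not tested.

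The proximal signaling genes Lck, Zap70 and Lat were all lower. Lat was not called with the mouse as a block (limma, adjusted p = 0.0594), and neither Lat (0.0697) nor Lck (0.0715) was called with the mean per mouse. Lck, the kinase that phosphorylates the CD3 chains, was at 93.7, 4.65 and 93.4 normalized cpm in the glands and at 3.41, 5.58 and 12.4 in the tumors (log2 fold change -2.39 ± 0.66, adjusted p = 0.0121, limma). Zap70, which binds the phosphorylated chains, was at 25.4, 1.39 and 18.5 and 0.942, 1.69 and 2.64 (log2 fold change -2.04 ± 0.50, adjusted p = 0.00618). For both kinases gland 2 was inside the range of the tumors, and glands 1 and 3 were above it.

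Of the transcription factors, neither passed the test. Foxp3, the factor of regulatory T cells, was at 6.55, 0.103 and 1.95 in the glands and at 0, 0.918 and 1.35 normalized cpm in the tumors (log2 fold change -0.72 ± 0.42, adjusted p = 0.214, limma), which corresponds to 0 to 19 reads in a tumor and 2 reads in gland 2. Bcl11b, required for the T cell lineage, was at 47.7, 1.39 and 18.2 in the glands and at 9.69, 20.2 and 48.2 in the tumors (log2 fold change 0.77 ± 0.67, adjusted p = 0.418). Only Bcl11b had its fold change above 0, gland 2 was below all tumors, and the fold change became -0.46 without gland 2 and -0.35 with scaling to epithelial genes. Bcl11b is also known in basal cells of the mammary epithelium, and the basal keratins Krt5 and Krt14 were significantly higher in these tumors (log2 fold changes of 2.82 and 1.73, limma). The part of these cells in the Bcl11b level was not tested. Because Bcl11b took up 9.69 to 48.2 normalized cpm in the tumors, sums over T cell genes are given without it.

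B cell genes had a median log2 fold change of -2.90, with standard errors of up to 1.15. Cr2, complement receptor 2, which also marks follicular dendritic cells, was at 57.7, 0.361 and 39.7 in the glands and at 0.0944, 0.343 and 12.96 normalized cpm in the tumors (log2 fold change -3.16 ± 0.94, adjusted p = 0.0185, limma). Cd22, an inhibitory coreceptor, was at 52.9, 2.17 and 51.0 and 1.93, 3.86 and 18.2 (log2 fold change -1.91 ± 0.71, adjusted p = 0.0539). Ms4a1, which encodes CD20, was at 47.4, 0.206 and 69.5 in the glands and at 0, 0.306 and 37.0 in the tumors (log2 fold change -3.12 ± 1.15, adjusted p = 0.0519), so that a log2 difference larger than that of most members did not pass the test. The highest tumor was tumor 1 for all 3 genes, and gland 2 lay within the tumor range for all 3. Pax5, the transcription factor of B cell identity, was at 9.68, 0.155 and 1.71 and 0, 0.0524 and 1.14 (log2 fold change -1.42 ± 0.47, adjusted p = 0.0313), where gland 2 had 3 reads. Cd79a, Cd79b and Fcer2a (CD23) were also lower with log2 fold changes between -2.94 and -2.88, whereas Blk, a kinase of B cells, did not pass with limma (-1.44 ± 0.55, adjusted p = 0.0597). With the mouse as a block or with the mean per mouse, 0 of the 8 B cell genes were called lower.

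Ltb, which lymphocytes use to maintain lymphoid tissue, was at 113, 7.02 and 83.5 normalized cpm in the glands and at 2.05, 5.23 and 13.4 in the tumors (log2 fold change -2.81 ± 0.64, adjusted p = 0.00384, limma). Gland 2 was within the range of the tumors.

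The cytotoxic and NK cell genes were all lower in the tumors, and for 4 of the 5 every tumor was below every gland. Nkg7, a protein of cytotoxic granules, was at 15.2, 4.70 and 18.2 in the glands and at 0.210, 0.905 and 3.06 normalized cpm in the tumors (log2 fold change -2.62 ± 0.36, adjusted p = 6.50e-05, limma). Gzmb, granzyme B, was at 10.4, 14.0 and 10.1 in the glands and at 0.839, 3.24 and 5.01 in the tumors (log2 fold change -1.73 ± 0.34, adjusted p = 0.0014), and it was the only member of the 36 for which gland 2 was not the lowest gland. Gzma, Prf1 (perforin) and Klrd1 (CD94, a receptor of NK cells) had log2 fold changes between -2.59 and -1.98, each significant. All tumors were below all glands for Gzma, Gzmb, Nkg7 and Prf1, while for Klrd1 tumor 1 was above gland 2. These are low levels, and Prf1 did not exceed 0.473 in any tumor.

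The antibody chains differed from each other. Ighm, the constant region of the IgM heavy chain, was at 166, 17.7 and 144 in the glands and at 8.19, 15.2 and 76.4 normalized cpm in the tumors (log2 fold change -2.19 ± 0.63, adjusted p = 0.0159, limma). Ighm was called with the mouse as a block (limma, adjusted p = 0.0208) but not with the mean per mouse (0.0789). Jchain, which joins IgM and IgA into polymers and is abundant in plasma cells, was at 17.1, 11.8 and 96.1 and 2.74, 20.4 and 207 (log2 fold change -0.24 ± 0.94, adjusted p = 0.869). The tumors and glands overlapped for both, and tumor 1 was above all 3 glands for Jchain. The sign of the Jchain difference was not stable, since it was 0.07 with plain cpm.

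The second comparison set gland 2 against glands 1 and 3. It is a description without a test, since gland 2 is 1 library. Gland 2 was the lowest gland for 35 of 36 members, beside 24.7% of all genes, and it was below 10% of the mean of glands 1 and 3 for 27 members, beside 2.87% of all genes. These 27 were 18 of 20 T cell genes, 8 of 8 B cell genes and Ltb. The sum of the 19 T cell genes other than Bcl11b was 860.5, 42.9 and 905 normalized cpm in glands 1, 2 and 3, and 36.6 to 103 in the tumors. The sum of the 8 B cell genes was 336, 6.45 and 324 in the glands. Gland 2 was within the tumor range for 22 members, below all tumors for 8, all of them T cell genes, and above all tumors for 6, beside 47.5%, 26.3% and 26.2% of all genes. The depth of gland 2 (21407069 reads) was close to that of gland 1.

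The cytotoxic members were less reduced in gland 2 than the T and B cell genes, a difference that was not tested. Their sum was 50.1, 28.9 and 76.4 normalized cpm in the glands and 1.89 to 14.8 in the tumors. As a percentage of the T cell sum without Bcl11b, it was 67.4% in gland 2, 5.83% and 8.45% in glands 1 and 3, and 3.96 to 19.0% in the tumors. Gland 2 held 18.7 to 137% of the mean of glands 1 and 3 for the 5 cytotoxic genes, lowest for Prf1 and highest for Gzmb, and 0 to 12.2% for the T cell genes, lowest for Ctla4 and highest for Cd4. In a further list of 7 NK and cytotoxic genes, which share no gene with the members, gland 2 was the lowest gland for 7 of 7, and their sum was 106, 20.6 and 150.2 in the glands.

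The fit changed with the gland libraries it used. Without gland 2, 34 members were significantly lower (limma, beside 10.1% of all genes), including all 8 B cell genes and 19 of 20 T cell genes, and the median log2 fold change was -3.54. Without gland 2 and tumor 1, 34 were lower as well (beside 9.97%). Both libraries were left out for their levels of these same genes, so the larger counts are no independent support. With gland 2 as the lone gland, which the fit assumes to vary like the tumors, 3 members were significantly lower (Gzma, Gzmb and Nkg7, beside 7.05% of all genes) and 1, Bcl11b, was significantly higher (beside 7.08%). In that fit the median log2 fold change was 0.15 over the members, 0.38 over the T cell genes, 0.25 over the B cell genes and -1.53 over the cytotoxic genes. Without gland 1, 13 members were lower (beside 8.18% of all genes), and without gland 3, 16 (beside 11.5%). The 5 cytotoxic genes were among the calls in each of these fits that kept 2 glands.

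**Figure D2:**
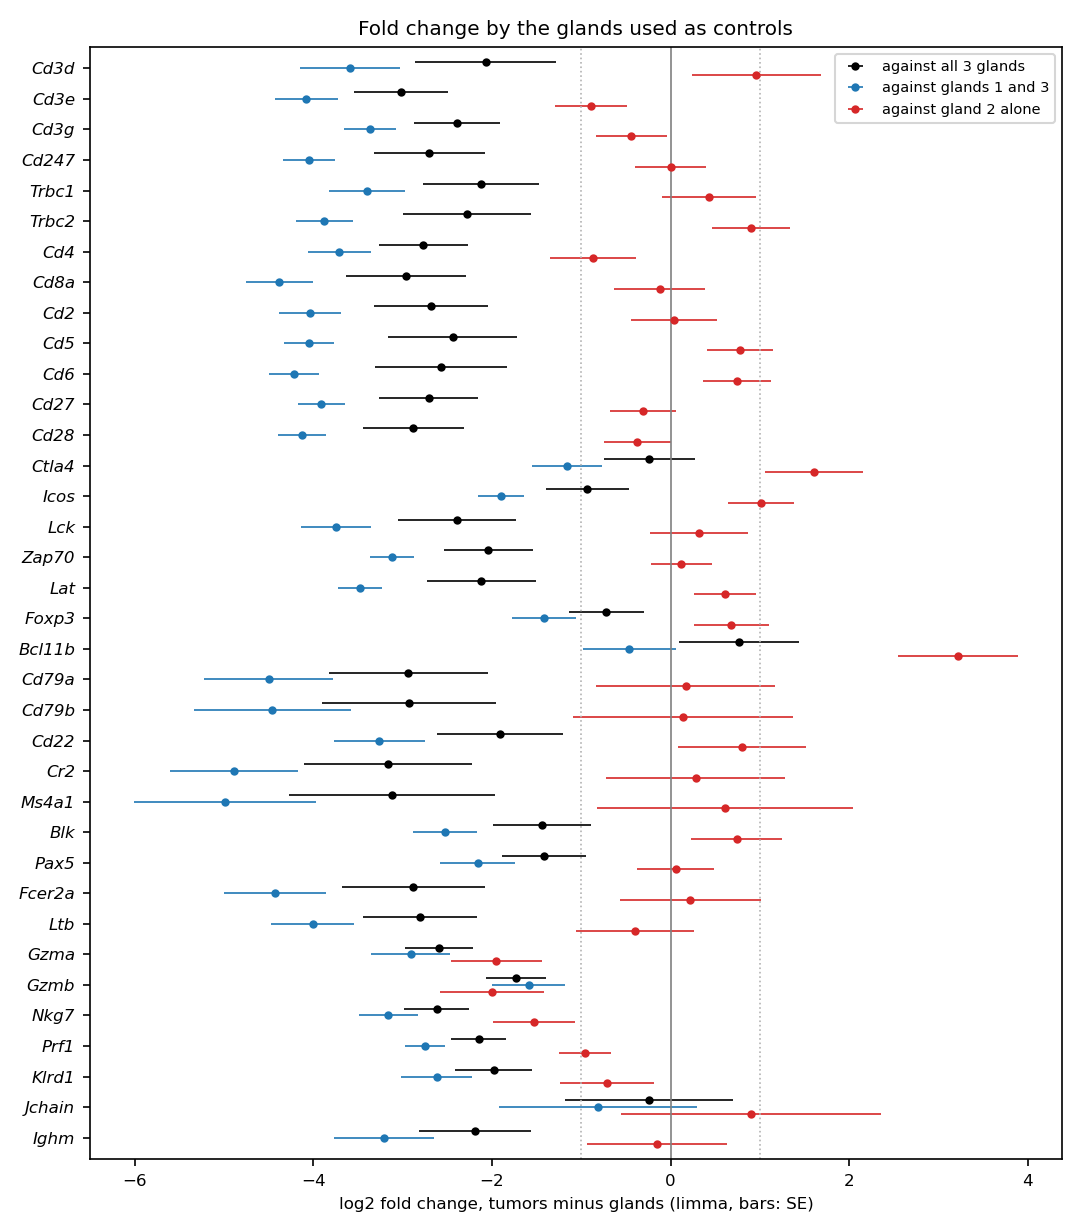
Log2 fold change of each member, tumors minus glands (x axis, limma, bars give the standard error), fitted against all 3 glands (black), glands 1 and 3 (blue) and gland 2 alone (red). Dotted lines mark a 2-fold change. The red points lie between -0.89 and 3.22 for the T cell genes, above 0 for the 8 B cell genes and at or below -0.71 for the 5 cytotoxic genes.

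Markers of some other cell types were also low in gland 2. Of the 10 genes of a lymph node stroma list, 6 were listed, and 5 of them were lower in the tumors, beside 10.1% of all genes. These 5 include Glycam1, and without it 4 of 5 were lower. Cxcl13 was not called (adjusted p = 0.137, limma). The chemokines Ccl19, Ccl21a, Ccl21b and Cxcl13, which attract lymphocytes into lymphoid tissue, summed to 196, 0.258 and 136 normalized cpm in glands 1, 2 and 3, with 0 reads of Ccl19, Ccl21b and Cxcl13 in gland 2, and to between 0.755 and 25.4 in the tumors. Ccl21a and Ccl21b are near-identical copies whose reads may be split. The adhesion molecule gene Madcam1 did not follow them and was at 9.51, 17.7 and 10.2 in the glands, and Glycam1, also a milk protein gene, was at 17290.0, 18560.0 and 32880.0. The sum of 8 genes of all leukocytes was 1331, 337 and 1237 in the glands and 267 to 533 in the tumors, and 1 of these 8 genes was significantly lower, a share near that of all genes. Gland 2 was also the lowest gland in the sums of dendritic cell genes (82.3, 30.1 and 68.6 in glands 1, 2 and 3), neutrophil genes (11.0, 3.98 and 49.7) and macrophage genes (823, 546 and 1868). The macrophage order follows Lyz2, which was at 475, 189 and 1531. Gene by gene, gland 2 was the lowest gland for only 2 of 10 macrophage genes, beside 24.7% of all genes. It was the lowest for 4 of 6 dendritic cell genes and 5 of 6 neutrophil genes. The endothelial, epithelial and adipocyte sums of gland 2 were 716, 1997 and 4489, against 699, 1288 and 4071 in gland 1 and 339.9, 934 and 11250.0 in gland 3, so that gland 2 was the highest gland in the endothelial and epithelial sums and lay between the others in the adipocyte sum. The part of lymph node tissue in the lymphocyte levels was not tested.

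**Figure D3:**
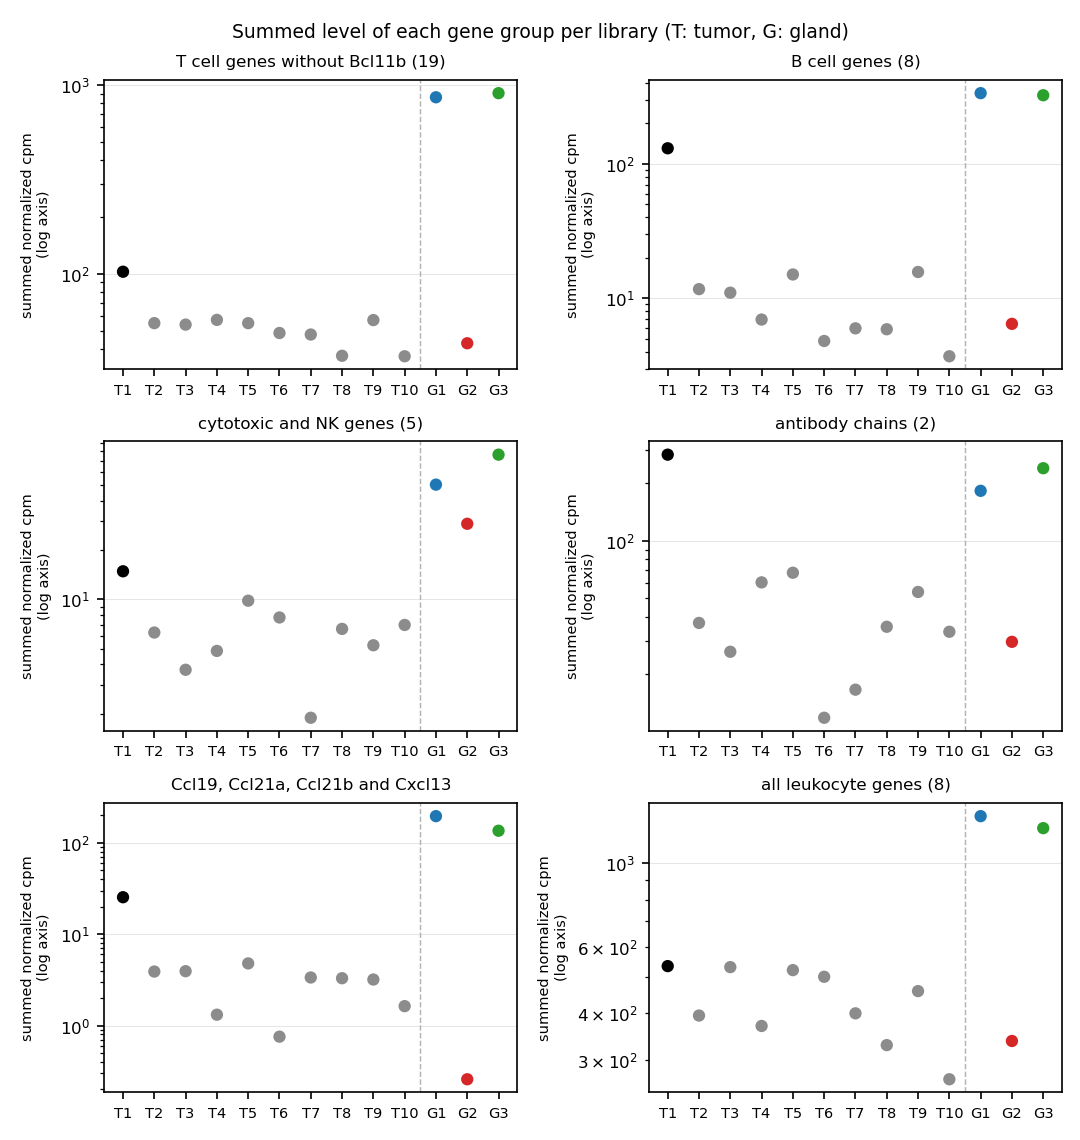
Summed normalized cpm (y axes, log scale) of 6 gene groups in the 10 tumors (T1 to T10, tumor 1 in black) and the 3 glands (G1 to G3). Gland 2 is near the tumors for T cell, B cell and all leukocyte genes, below the tumors for the chemokines and above them for the cytotoxic genes. Tumor 1 is the highest tumor in each group, but only slightly so for all leukocyte genes (532.9 against 529.6 in tumor 3).

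Glands 1 and 3 held similar sums but differed gene by gene. Cd3d was 32.4 and 93.0 normalized cpm in glands 1 and 3, whereas its neighbor Cd3e was 78.2 and 30.4. Of the 18 members with up to 2848 bases of exon, 12 were higher in gland 3, against 4 of the 18 longer members. Over all genes with a known exon length, 67.1% of those up to this length and 38.5% of the longer ones were higher in gland 3. Spearman's rho of the log2 ratio of gland 3 to gland 1 with exon length was -0.55 across the 36 members and -0.38 across 14594 genes, which share the same 2 libraries. The direction was the same over the members and over all genes, and the difference in Rn45s (4.35% of reads in gland 3 and 0.324% in gland 1) and in depth stood beside it. The part of these in the gene levels was not tested.

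The third comparison set tumor 1 against the other 9 tumors, again as a description. Tumor 1 was the highest tumor for 25 of 36 members, beside 13.5% of all genes, and more than 2-fold above the next tumor for 13, beside 0.592% of all genes. Of these 13, 7 were B cell genes (all but Pax5), 2 were T cell genes (Cd3d and Cd2), 2 were cytotoxic genes (Nkg7 and Klrd1) and 2 were Jchain and Ighm. Ms4a1 was 37.0 normalized cpm in tumor 1 and at most 1.48 in the other tumors, a ratio of 25.0. Cr2 was 12.96 and at most 0.683, and Cd79b was 36 and at most 2.85. Cd3e and Cd4, in contrast, were within the range of the other tumors (1.98 and 4.14). The B cell sum of tumor 1 was 131, and that of the other tumors was 3.71 to 15.7, while the T cell sum without Bcl11b was 103 against 36.6 to 57.0. Tumor 1 thus had 1.27 units of B cell genes per unit of T cell genes, above glands 1 and 3 (0.39 and 0.358) and tumors 2 to 10 (0.099 to 0.276). The lymphoid chemokines summed to 25.4 in tumor 1 and to 0.755 to 4.79 in the other tumors. Without tumor 1, 31 members were significantly lower than in the glands, with Cd3d, Cd22, Ms4a1 and Blk added to the 27 (limma, beside 9.87% of all genes). Tumor 1 was singled out for its high levels of these genes, so the added calls are no independent support.

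**Figure D4:**
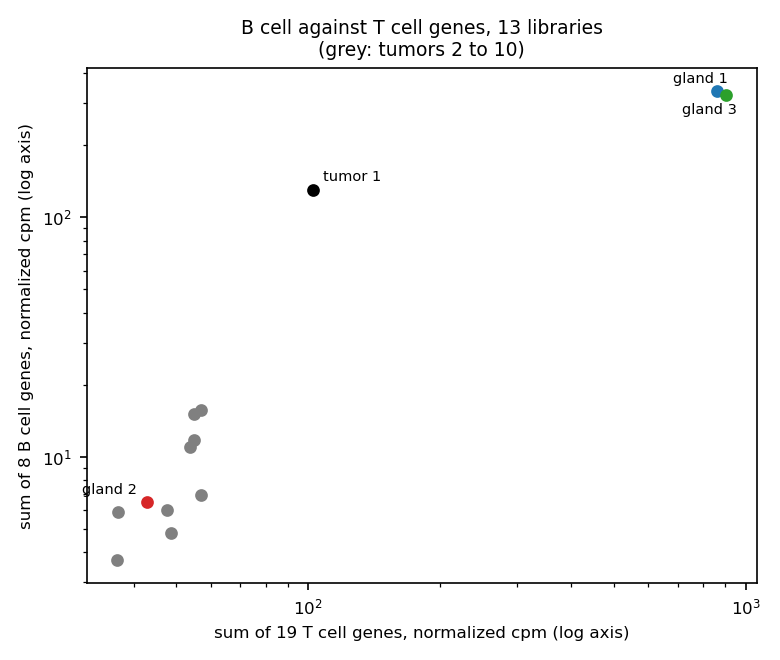
Sum of the 8 B cell genes (y axis) against the sum of the 19 T cell genes other than Bcl11b (x axis), both in normalized cpm on log axes, 1 point per library. Glands 1 and 3 lie at the upper right, gland 2 lies among tumors 2 to 10, and tumor 1 lies between them with more B cell than T cell signal.

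Tumors from the same mouse did not always hold like levels. In the mouse of tumors 5 and 6, Jchain was 53.1 and 2.74 normalized cpm and the antibody light chain gene Igkc was 151 and 14.9, whereas Ighm was 14.9 and 9.06. In the mouse of tumors 8, 9 and 10, the B cell sum was 5.88, 15.7 and 3.71, and the T cell sum without Bcl11b was 36.8, 56.9 and 36.6. Rn45s took up 27.4% of the reads of tumor 9, against 0.799% and 4.07% in tumors 8 and 10, and its part was not tested. Tumors 2 and 3 were closer, with B cell sums of 11.7 and 11.0. With the mean of each mouse as the unit, 15 members were significantly lower, 0 of them B cell genes, and with the mouse as a random effect, 18 were (limma, beside 9.29% and 11.0% of all genes). The 5 cytotoxic genes were among the calls in both.

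Other lymphocyte genes, in lists that share no gene with the members, were examined for the same contrast. Of 79 such genes, 63 were listed, 34 were significantly lower and 2 were higher (limma, beside 10.1% and 10.5% of all genes), with a median log2 fold change of -1.64. With the mouse as a block and with the mean per mouse, 23 were lower in either fit (beside 11.0% and 9.29%). Among genes of T cell signaling and transcription, 13 of 21 were lower. Among B cell genes, 9 of 18 were lower, with the largest fall for Ighd, the IgD heavy chain (-3.50 ± 0.92). Among NK and cytotoxic genes, 5 of 7 were lower, with the largest fall for the chemokine gene Ccl5 (-3.47 ± 0.48). Among homing genes, 6 of 8 were lower. In the plasma cell list Irf4 was lower (-1.72 ± 0.34) and Sdc1 and Prdm1 were higher (2.74 ± 0.32 and 2.49 ± 0.35). Sdc1 and Prdm1 are known in epithelial cells as well. Gland 2 was the lowest gland for 59 of these 63 genes, beside 24.7% of all genes. Among other leukocytes, 1 of 10 macrophage genes was higher and 0 were lower, 4 of 6 dendritic cell genes were lower and 1 was higher, and 3 of 6 neutrophil genes were higher, including S100a8 (6.96 ± 0.85).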

How the data were processed

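RNA-seq libraries of 10 tumors and 3 mammary glands were grouped by the sample descriptions. According to the methods, the authors mapped 75 base paired-end reads to mm10 with Rsubread, counted them with featureCounts and normalized them with edgeR. The deposited values are a normalized signal (cpm, read counts scaled to library size and by a factor for each library) and are not counts. Divided by what 1 read is worth in its library, 100% of the values gave a whole number within 0.01, so the read counts were recovered from the deposited table. No column was left without a sample. The strand setting is not given in the sources used here.

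The fit was limma 3.58.1 (R 4.3.3) with a variance trend on log2(normalized cpm + 1), with condition as the only term, over all 15213 genes. Genes were called at a Benjamini-Hochberg FDR below 0.05 and a log2 fold change beyond 1. A fold change on this scale understates the change of low genes. The filter in the methods (removing genes at 5 cpm or less in most samples) was an alternative, because it removes genes that are high in the glands alone, and 7 of 36 members passed it. edgeR 4.0.16 on the recovered reads called 1715 genes lower and 1830 higher over all genes. DESeq2 1.42.0, other pseudocounts, scalings, the mouse as block and each library left out were further alternatives. The fit was tested on simulated data. p-values take the tumors as separate samples, although 10 tumors came from 6 mice. No batch could be assigned.

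The members, the lists and the comparisons of gland 2 and tumor 1 were chosen with earlier results of these data known. In each class, the members with the largest and smallest log2 fold change are given in full, and in each further list the called genes with the largest rise and fall, of which 2 are not reported here. The sums of chemokines and the ratio of Ctla4 to Cd28 were added after the data were seen. Coordinates and promoters are those of RefSeq (GRCm38.p6), and exons those of GENCODE (GRCm38).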

Additional observations from a re-analysis of the deposited data

Results flagged for a closer look

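In the 10 tumors, 40 values (36 members and 4 group sums, on the log2(normalized cpm + 1) scale) were examined for a library whose gap to the next one was large against the range of the group by Dixon's test, which chance alone flags in about 1 of 20 groups. The comparison of tumor 1 with the other tumors had been chosen with these data known, so that its appearance here is a description and adds no evidence to it. Tumor 1 passed for 10 values. They were Ms4a1 at 37.0 normalized cpm, Cd79b at 36, Cd79a at 14.4, Cr2 at 13, Fcer2a at 6.54, Blk at 4.44, Ighm at 76.4, Trbc2 at 20.0 and Cd2 at 4.26, and the sum of the B cell genes at 131. The values are not independent, since they come from 1 library and are in part summed over the same genes. The groups of 3 glands are too small for this test.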

How the results depend on the processing

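The count of 27 lower members was 31 with edgeR and with DESeq2 and 27, 28, 27, 27 and 33 with a pseudocount of 0.25 or 5, plain cpm, plain cpm without Rn45s and scaling to epithelial genes. These scalings moved the all-gene median (log2) from 0.01 to 0.31, 0.36 and -1.10 in the order plain cpm, plain cpm without Rn45s and epithelial, and the share of lower calls among all calls from 49.0% to 31.2, 28.7 and 92.9% (1538 lower and 1603 higher against 1077 and 2374, 1043 and 2591, and 8302 and 634). Tsg101 was at 0.62, 0.68 and -0.88 under these scalings (limma, adjusted p = 0.0146, 0.00493 and 0.0554, none of them past 2-fold) and at 0.19 to 0.40 when 1 library was left out. The count fell to 5 with the low-abundance filter (7 members tested), 15 with the mean per mouse, 15 without the mouse of tumors 8, 9 and 10, and 3 with gland 2 as the lone gland (1 member higher), an alternative chosen after the data were seen, as was leaving out gland 2 and tumor 1 (34 lower). Leaving out 1 library gave 13 to 34 lower members (13 without gland 1, 16 without gland 3, 34 without gland 2) and 0 higher. For the 34 lower genes of the related lists, the filter gave 3 of 20 (beside 6.99% of all genes), epithelial scaling 54 (beside 54.6%), gland 2 alone 7 (beside 7.05%), and leaving out 1 library 19 to 48. Replicate numbers shared by tumors and glands did not pair them (correlations of deviations -0.41, 0.04 and -0.59), and a replicate block on these numbers left 1 member and 8 related genes lower (beside 3.71%). The cause of these changes was not tested, and some of these fits also held fewer genes or samples.

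Gland 2 remained the lowest gland for 35 or 36 members and tumor 1 the highest tumor for 24 or 25 under the scalings, which were chosen for these counts after the data were seen. Signs turned for Ctla4 (0.08 with a pseudocount of 0.25, 1.34 with voom and the mouse as block, 0.01 with plain cpm without Rn45s), for Jchain (0.05 with edgeR and DESeq2, 0.11 with the mean per mouse, 0.07 and 0.13 with plain cpm with and without Rn45s, 0.34 with the replicate block) and for Bcl11b (-0.35 with epithelial scaling, -0.44 without gland 2 and tumor 1). Leaving out 1 library gave -1.16 to 0.27 for Ctla4, -0.81 to 0.65 for Jchain and -0.46 to 1.72 for Bcl11b. Against gland 2 alone, the log2 fold change was 0.96 for Cd3d, 0.00 for Cd247, 0.43 for Trbc1, 0.90 for Trbc2, 0.04 for Cd2, 0.78 for Cd5, 0.74 for Cd6, 1.61 for Ctla4, 1.01 for Icos, 0.32 for Lck, 0.12 for Zap70, 0.61 for Lat, 0.68 for Foxp3, 0.17 for Cd79a, 0.14 for Cd79b, 0.80 for Cd22, 0.28 for Cr2, 0.61 for Ms4a1, 0.74 for Blk, 0.06 for Pax5, 0.22 for Fcer2a and 0.90 for Jchain. At the depth of the tumors, differences among them for Prf1, Pax5, Foxp3 and Cd28 rest on few reads.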
